A study of Mus musculus with 6 samples.

Results

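The chromatin around 4 genes of the growth hormone and insulin-like growth factor (IGF) axis, Igf1, Igfbp1, Igfbp3 and Ghr, was examined for binding of biotinylated TRb1 in mouse liver. TRb1 is a thyroid hormone receptor through which liver cells respond to triiodothyronine (T3). Members were all peaks whose midpoint fell into 1 of 3 windows of the mm9 build. These were the Igf1 window on chromosome 10 from 87270000 to 87450000, the window shared by the neighbouring genes Igfbp1 and Igfbp3 on chromosome 11 from 7050000 to 7180000, and the Ghr window on chromosome 15 from 3220000 to 3590000. They held 82 of the 98191 peaks in the 3 deposited lists. Of these, 42 of 46092 came from the TRb T3 list, 40 of 51992 from the TRb PTU list and 0 of 107 from the GFP PTU list.

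There were 3 groups with 1 ChIP library each, and how many animals stand behind a library is not stated in the labels. In the TRb T3 group, mice received an adenovirus encoding GFP and biotinylated TRb1 and were injected with T3, in the TRb PTU group the same virus and saline, and in the GFP PTU group a virus encoding GFP alone and saline. All mice were heterozygous for BirA, the ligase that attaches biotin to the tagged receptor, were 9 to 10 weeks old, ate a diet with propylthiouracil (PTU), which blocks the thyroid from making hormone, for 3 weeks, received the virus through the tail vein and were injected for 4 days. The receptor was captured on streptavidin agarose, so the maps show virus-delivered, tagged TRb1 and not the endogenous receptor; the cells that expressed BirA are not named in the labels. The lists hold no reads, so depth is unknown, and no expression, so the label liver was not checked against marker genes. With 1 library per group no test between groups was possible, and peaks within a library are not replicates.

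Growth hormone from the pituitary acts on hepatocytes through the growth hormone receptor, the product of Ghr, which signals through Jak2 and Stat5 and induces Igf1. The liver is the main source of circulating IGF1, which is carried in blood by binding proteins. IGFBP3 holds most of it in a long-lived complex, whereas IGFBP1 is a smaller carrier made by hepatocytes whose gene is repressed by insulin. Thyroid hormone receptors bind DNA, with or without hormone, mostly as partners of RXR, at copies of the hexamer AGGTCA arranged as repeats with a short spacer.

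The sequences under the peaks are not printed, because no mm9 sequence was used here. To show the recognition hexamer in a gene of the axis, the RefSeq promoter windows of build GRCm38.p6 (250 bases before to 50 after a gene start) were searched for AGGTCA on both strands. All 4 genes matched by symbol, with 5 windows, since Ghr had 2. The Igf1 promoter window, chr10:87860861-87861160 on the plus strand in GRCm38.p6, was the 1 window of the 5 with the hexamer, shown in capitals and separated from the gene start by 155 bases.
Igf1 promoter: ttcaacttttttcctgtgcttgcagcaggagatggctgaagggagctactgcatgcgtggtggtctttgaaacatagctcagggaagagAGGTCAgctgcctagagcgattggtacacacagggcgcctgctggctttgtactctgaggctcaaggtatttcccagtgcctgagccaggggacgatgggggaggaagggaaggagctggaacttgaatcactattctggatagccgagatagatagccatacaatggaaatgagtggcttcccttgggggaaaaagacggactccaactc
The hexamer occurred in 16.3% of all 32851 such windows. The Igf1 promoter window held 1 exact copy of the hexamer, and so no repeat of exact copies. A match is a description of the letters and not a bound site. Whether a peak lay on this stretch was not determined, since its coordinates belong to another build than the peaks. For the same reason peaks are given by position within the window and not by exon, intron or promoter. By gene order in GRCm38.p6, Igfbp1 and Igfbp3 lie side by side.

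Both TRb1 lists held several peaks in each window, and the GFP PTU list held 0 in all 3. The Igf1 window held 15 TRb T3 and 15 TRb PTU peaks, the window of Igfbp1 and Igfbp3 held 9 and 8, and the Ghr window held 18 and 17. The nearest GFP PTU peak was 8.09 Mb from the Igf1 window, 4.03 Mb from that of Igfbp1 and Igfbp3 and 55.9 Mb from that of Ghr. Consequently 0 of the 82 members overlapped a GFP PTU peak, against 0.102% of all TRb T3 and 0.162% of all TRb PTU peaks.

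Peaks were denser in the windows than over their chromosomes. The Igf1 window had 8.33 peaks per 100 kb in either list, against 1.81 in TRb T3 and 2.0 in TRb PTU over chromosome 10. In the window of Igfbp1 and Igfbp3 the densities were 6.92 per 100 kb in TRb T3 and 6.15 in TRb PTU, against 2.54 and 3.37 over chromosome 11 and 1.75 and 1.97 over all chromosomes. The long Ghr window had 4.86 per 100 kb in TRb T3 and 4.59 in TRb PTU, against 1.90 and 2.19 over chromosome 15. Peaks cluster along the genome, so these means are not typical stretches. Cut into windows of the same length, chromosome 10 had a median of 1 TRb T3 and 1 TRb PTU peak per window, and 37 of its 723 windows in TRb T3 and 45 in TRb PTU held at least 15. On chromosome 11 the medians were 1 in TRb T3 and 2 in TRb PTU, and 125 and 223 of 936 windows held at least as many peaks as that of Igfbp1 and Igfbp3. On chromosome 15 the medians were 3 and 3, and 42 and 55 of 279 windows held at least as many as that of Ghr. The windows were laid around named genes with earlier results of these data known, so the densities are given as a description.

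Of the 42 TRb T3 peaks, 28 shared at least 1 bp with a TRb PTU peak, and each of the 28 met a single partner. The other 14 were T3-only (33.3%, exact 95% interval 19.6 to 49.5%), against 38.7% of all TRb T3 peaks. Likewise 12 of the 40 TRb PTU peaks were PTU-only (30.0%, interval 16.6 to 46.5%), against 46.1% of all TRb PTU peaks. Both intervals contain the list-wide value. They cover counting error only and treat peaks as independent, although peaks cluster along the genome. Over the whole lists, single-list peaks scored lower than shared ones. The medians were 14.95 against 30.27 in TRb T3 and 12.62 against 32.09 in TRb PTU. Among members that scored no lower than their list's median, set against all peaks of the other list (a setting chosen after seeing the data), 4 of 27 were T3-only, against 24.3% of all such TRb T3 peaks, and 5 of 26 were PTU-only, against 26.2% of all such TRb PTU peaks. With the other list filtered in the same way, 9 of 27 (33.3%) were T3-only, against 39.9% list-wide, and 8 of 26 (30.8%) PTU-only, against 46.9%, close to the unfiltered shares of the members. That setting also counts as single-list a peak whose partner scored below the median, so it does not show how score relates to overlap.

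The share of single-list peaks was highest in the Igf1 window in both lists, with wide intervals. Near Igf1, 7 of 15 TRb T3 peaks were T3-only (46.7%, interval 21.3 to 73.4%) and 7 of 15 TRb PTU peaks were PTU-only (46.7%, same interval), close to the shares of the whole lists. In the window of Igfbp1 and Igfbp3, 2 of 9 were T3-only (22.2%, interval 2.81 to 60.0%) and 1 of 8 PTU-only (12.5%, interval 0.316 to 52.7%). In the Ghr window, 5 of 18 were T3-only (27.8%, interval 9.69 to 53.5%) and 4 of 17 PTU-only (23.5%, interval 6.81 to 49.9%). The intervals of the 3 windows overlap in both lists. Under filters on the score, the T3-only share went as low as 22.2% and as high as 66.7% near Igf1 and down to 8.33% near Ghr, and the PTU-only share of the window of Igfbp1 and Igfbp3 lay between 0.0 and 28.6%. The 66.7% and 28.6% came from filtering both lists, where a peak whose partner fell below the median also counted as single-list. The 22.2% (2 of 9 peaks) came from filtering the TRb T3 list alone.

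**Figure D1:**
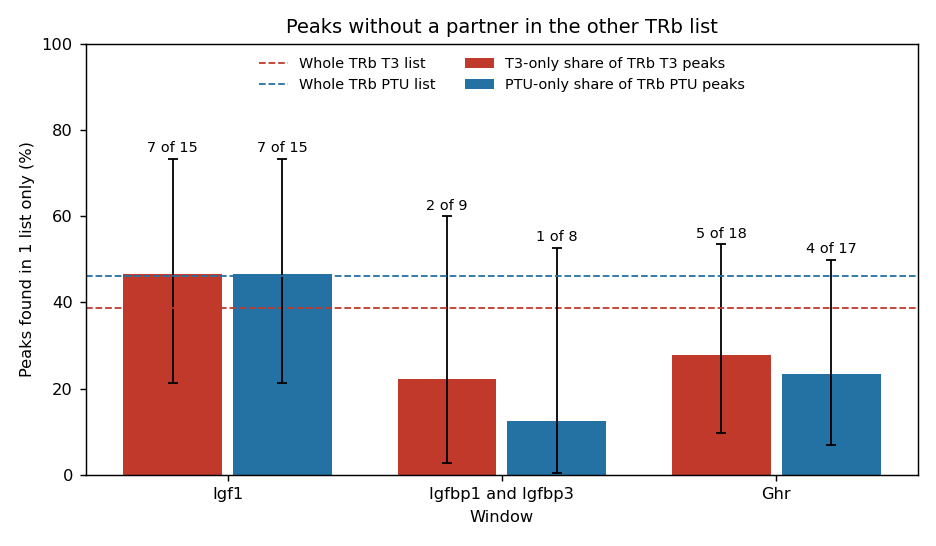
Share of peaks found in 1 TRb1 list only, in percent of that list's peaks in the window; bars are windows by list, error bars are exact 95% binomial intervals over peaks, the counts above the error bars are peaks and dashed lines mark 38.7% for the whole TRb T3 list and 46.1% for the whole TRb PTU list. All 6 intervals reach across the line of their list.

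The score of a peak is the authors' peak caller's value. It is given here with its percentile, the position of the peak in the score ranking of its own list, since scores of different lists are not on a scale known to be common. To compare the conditions, the 27010 one-to-one pairs of overlapping peaks, called single pairs, were ranked again within that set, once by TRb T3 and once by TRb PTU score, and the difference of the percentiles, TRb T3 minus TRb PTU, is given in points. Of all pairs, 48.9% ranked higher in TRb T3. Of the 28 pairs in the windows, 16 did, so the direction was near the background. A gain of 20 or more points in TRb T3 was seen in 8 of the 28, against 21.9% of all pairs, and a loss of as many in 4, against 22.7%.

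Igf1 encodes the hormone itself. Its window held many sites of modest score, spread over 22 positions of which 8 were shared, 7 T3-only and 7 PTU-only. The median percentile of its peaks was 50.4 in TRb T3 and 45.4 in TRb PTU, that is, mid-list. The top score decile, which holds 10.0% of each list by construction, contained 1 of the 15 TRb T3 peaks and 0 of the 15 TRb PTU peaks.

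The best-scored shared site near Igf1 was also a wide one. Its TRb T3 peak lay at 87348077 to 87348867, with score 95.86 and percentile 90.9, and its TRb PTU peak at 87348099 to 87348829, with score 46.22 and percentile 77.6. At 791 bp in TRb T3 and 731 bp in TRb PTU it was wide in both conditions, whereas peaks of 600 bp or more make up 1.26% of all TRb T3 and 2.56% of all TRb PTU peaks. Among single pairs it stood 22.9 points higher in TRb T3.

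The next shared sites of this window were ranked differently in the 2 conditions. At 87320405 to 87320618 the TRb T3 score was 51.70 (percentile 77.9) and the TRb PTU score of its partner was 15.52 (percentile 41.0), a difference of 45.1 points among pairs. At 87294859 to 87295059 the scores were 27.08 in TRb T3 and 7.38 in TRb PTU, a difference of 40.2 points. Both sites were thus below the median score of the TRb PTU list and above that of the TRb T3 list. The site at 87310731 to 87310990 went the other way, scoring 25.65 in TRb T3, against 40.73 in TRb PTU, with a difference of -15.5 points. At 87328570 to 87328764 the scores were 25.22 in TRb T3 and 13.83 in TRb PTU, a difference of 21.8 points. In all, 5 of the 8 shared sites ranked higher in TRb T3, with a range from -15.5 to 45.1 points, and all 4 differences of at least 20 points were gains.

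Along the Igf1 window the shared sites ended before the single-list peaks did. All 8 shared sites fell within 65.6 kb, from 87294859 to 87360506. The 89.5 kb from the last shared peak to the window end held 2 TRb T3 and 4 TRb PTU peaks. None of these 6 is shared by definition, since the stretch was drawn to start after the last shared peak. The PTU-only peaks in this stretch included the widest member of all, at 87368925 to 87369896, which measured 972 bp (score 41.07, percentile 74.6) and lay 8429 bp from the nearest TRb T3 peak. The other highest PTU-only peaks were at 87389893 to 87390139 (score 22.68, percentile 55.9), 87364739 to 87364954 (19.61, percentile 50.7), 87334771 to 87334938 (18.61, percentile 48.7) and 87378674 to 87378845 (17.24, percentile 45.4). These stood near the middle of the TRb PTU list. The remaining 2 PTU-only peaks had scores of 6.72 and 3.57.

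The highest T3-only peak near Igf1 was the last member of the window. It lay at 87436994 to 87437231 with a score of 68.13 (percentile 84.4), and 46854 bp without a peak of either list separated it from the preceding TRb PTU peak. It was followed by 87347241 to 87347475 (score 31.55, percentile 63.0), which lay 623 bp from the PTU partner of the wide shared site. The next were 87311132 to 87311353 (19.07, percentile 44.3), 141 bp from a shared TRb PTU peak, and 87389328 to 87389513 (14.95, percentile 34.0), 379 bp from a PTU-only peak. The fifth, at 87319141 to 87319422, had a score of 13.61 (percentile 30.3), and the remaining 2 had 11.58 and 7.56. Several T3-only calls were therefore close neighbours of TRb PTU peaks that they did not touch, and the highest-scored one was not. The next TRb T3 peak after the highest-scored one lay past the window end, at 87462810 to 87462992, and was also T3-only.

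**Figure D2:**
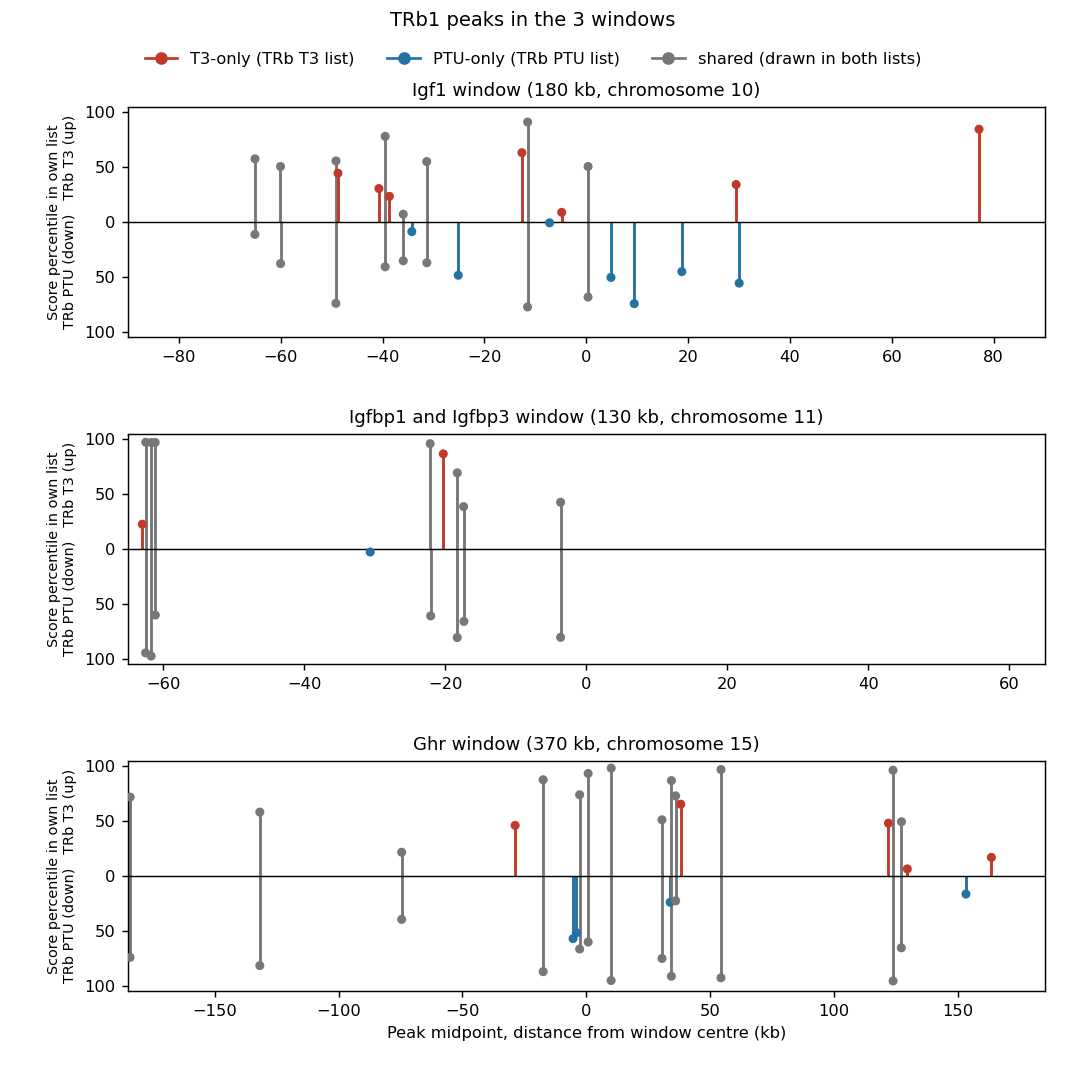
Position of each peak midpoint, in kb from the window centre, against its score percentile within its own list, with TRb T3 drawn upwards and TRb PTU downwards in the 3 windows; grey marks shared peaks, red T3-only and blue PTU-only. After its last shared peak the Igf1 window holds 6 peaks in 89.5 kb, which are single-list by definition of the stretch. The last 68.5 kb of the window of Igfbp1 and Igfbp3 hold no peak. Grey pairs run along the Ghr window, with all those in the top decile of a list between 3405633 and 3528957.

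Igfbp1 and Igfbp3 encode carriers of IGF1. Their common window, the shortest at 130 kb, held 10 positions, of which 7 were shared, 2 T3-only and 1 PTU-only. Of its peaks, 6 of the 9 TRb T3 and 7 of the 8 TRb PTU peaks scored at least their list's median. The median percentile of the peaks was 86.7 in TRb T3 and 73.3 in TRb PTU. Top-decile peaks made up 4 of the 9 TRb T3 and 2 of the 8 TRb PTU peaks, against 10.0% of either list. Most of these top-decile peaks lay side by side within 2025 bp, so they are not separate places along the window.

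Nearly all of these sites lay in 2 tight groups. The first spanned 2025 bp from 7051971 to 7053995 and held 4 TRb T3 and 3 TRb PTU peaks. The second spanned 5149 bp from 7092630 to 7097778 and also held 4 TRb T3 and 3 TRb PTU peaks. Between them, 30291 bp had no peak before a weak PTU-only call at 7084287 to 7084420 (score 4.77, percentile 2.74). After the shared peak that ends at 7111472, the remaining 68.5 kb of the window had no peak in either list, and the next peak began at 7520368 in TRb T3 and at 7510112 in TRb PTU.

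The first group contained 3 shared sites side by side. The site at 7052232 to 7052816 scored 165.36 in TRb T3 (percentile 97.3) and 120.32 in TRb PTU (percentile 94.7), and it was the widest of the window at 585 bp in TRb T3 and 571 bp in TRb PTU. The site at 7053097 to 7053491 scored 159.01 in TRb T3 (percentile 97.0) and 164.82 in TRb PTU (percentile 97.6). These 2 were near the top of both lists, and their ranks among pairs differed by 5.15 points at the first and -0.285 at the second. The site at 7053737 to 7053995 scored 160.63 in TRb T3 (percentile 97.1) and 25.53 in TRb PTU (percentile 60.2), a difference of 53.7 points. Thus 3 sites within 2025 bp were all in the top decile of TRb T3, while 2 of the 3 were in that of TRb PTU. A T3-only peak at 7051971 to 7052113 (score 11.29, percentile 22.6) lay 111 bp from the first shared TRb PTU peak.

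Within the second group the rank differences had both signs. The site at 7092630 to 7093083 scored 141.52 in TRb T3 (percentile 96.0) and 26.25 in TRb PTU (percentile 61.0), a gain of 51.2 points. The strongest T3-only peak of the window followed at 7094499 to 7094940, with a score of 76.28 (percentile 86.7) and 1438 bp to the nearest TRb PTU peak. The site at 7096616 to 7096790 scored 38.70 in TRb T3 and 52.39 in TRb PTU, a difference of -9.39 points. At 7097498 to 7097704 the scores were 16.65 in TRb T3 and 30.57 in TRb PTU, a difference of -20.7 points. The separate shared site at 7111279 to 7111432 scored 18.28 in TRb T3 (percentile 42.6) and 52.04 in TRb PTU (percentile 80.5), a difference of -36.7 points, the lowest of the 28 pairs. Along the window, the 4 shared sites up to 7093083 thus ranked higher in TRb T3 or within 1 point of equal, and the 3 after it ranked lower. Over the 7 pairs, 3 ranked higher in TRb T3, with a median of -0.285 points.

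Ghr encodes the receptor for growth hormone. Its window held 22 positions, of which 13 were shared, 5 T3-only and 4 PTU-only, and the shared sites were spread over 312 kb. The median percentile was 68.9 in TRb T3 and 66.4 in TRb PTU, and the top decile contained 4 of the 18 TRb T3 and 4 of the 17 TRb PTU peaks, against 10.0% of either list.

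A trio of strong sites near Ghr was in the top decile of both lists. The highest, at 3414893 to 3415203, scored 194.30 in TRb T3 (percentile 98.5) and 123.36 in TRb PTU (percentile 95.1). The site at 3459245 to 3459499 scored 162.61 in TRb T3 (percentile 97.2) and 102.14 in TRb PTU (percentile 92.6). At 3528647 to 3528926 the scores were 150.21 in TRb T3 (percentile 96.6) and 128.98 in TRb PTU (percentile 95.5), the highest TRb PTU score of the window. Their ranks among pairs moved little, with differences of 6.32 points at the first, 8.56 at the second and 2.66 at the third.

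The fourth of these sites by TRb T3 score, at 3405633 to 3405857, was strong in 1 condition. It scored 115.76 in TRb T3 (percentile 93.6) and 25.45 in TRb PTU (percentile 60.0), a difference of 48.6 points. The fifth, at 3387471 to 3387693, scored 81.00 in TRb T3 and 71.67 in TRb PTU, with percentiles of 87.9 and 87.0 and a difference of 4.24 points. A site of lower score, at 3440948 to 3441154, had the largest difference of the window at 52.1 points, scoring 43.83 in TRb T3 (percentile 73.2) and 9.99 in TRb PTU (percentile 22.5). Its neighbour at 3439240 to 3439482 scored 77.80 in TRb T3 and 92.62 in TRb PTU, a difference of -3.61 points, and so held its rank although it lies within 2 kb. The largest loss was at 3273134 to 3273330, scoring 27.94 in TRb T3, against 54.43 in TRb PTU, with a difference of -22.8 points, followed by 3435437 to 3435661 with -20.3 points. Of the 13 pairs, 8 ranked higher in TRb T3, with a median of 3.33 points.

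**Figure D3:**
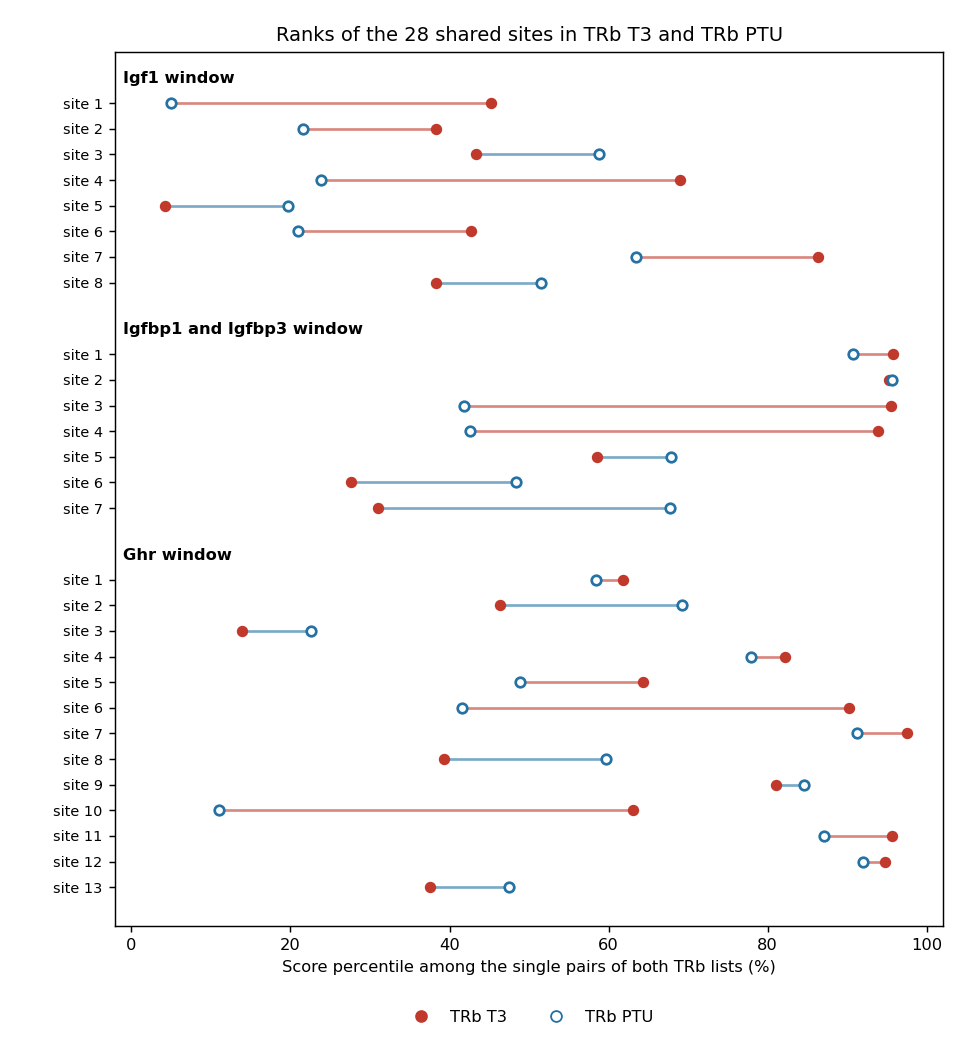
Score percentile of each of the 28 shared sites among the 27010 single pairs, in order of position within each window, with filled circles for TRb T3 and open circles for TRb PTU; red lines join sites ranked higher in TRb T3 and blue lines those ranked lower. Sites 3 and 4 of the window of Igfbp1 and Igfbp3 (53.7 and 51.2 points) and sites 6 and 10 of the Ghr window (48.6 and 52.1 points) show the longest red lines.

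Single-list peaks near Ghr scored low to middling, as such peaks did list-wide. Their median score was 20.13 in TRb T3 and 15.16 in TRb PTU, against 14.95 and 12.62 for all single-list peaks. The highest T3-only peak, at 3442887 to 3443338 (score 34.27, percentile 65.6), was with 452 bp the widest TRb T3 peak of the window. The others lay at 3526873 to 3527026 (21.20), 3376196 to 3376365 (20.13), 3568435 to 3568567 (9.91) and 3534494 to 3534625 (6.93). The PTU-only peaks lay at 3399564 to 3399775 (23.36, percentile 56.9), 3400918 to 3401111 (20.08, percentile 51.6), 3438699 to 3438976 (10.24) and 3558127 to 3558321 (8.57). The first 2 of these stood side by side just before the shared site at 3402209. The third lay 263 bp from a shared TRb T3 peak. The widest TRb PTU peak, at 451 bp, was the partner of the top shared site.

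Paired peaks share at least 1 bp by definition, so their midpoints were bound to lie near each other. Midpoints of the 28 pairs differed by a median of 13.75 bp, against 18.5 bp over all single pairs, and by 1.0 to 80.0 bp. The widest offset was at the site of Igfbp1 and Igfbp3 at 7092630, where the TRb T3 peak of 454 bp extended past both ends of the TRb PTU peak of 248 bp. Median widths of the members were 218 bp in TRb T3 and 220 bp in TRb PTU, against 193 and 210 bp for the whole lists.

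The members nearest to a window edge were those of the shared site at the start of the Ghr window, with midpoints 900.5 bp inside it in TRb T3 and 858 bp inside in TRb PTU. Past the end of that window the nearest outside site was shared, with its midpoint 8440.5 bp away in TRb T3 (score 160.01, percentile 97.1) and 8438.5 bp away in TRb PTU (score 25.80, percentile 60.3). Before its start the lists had different nearest sites, a T3-only peak 6877 bp away (percentile 81.5) and a shared TRb PTU peak 18821.5 bp away (percentile 9.07). The last members of the Ghr window were single-list peaks of low score, at 3568435 in TRb T3 (percentile 17.1) and at 3558127 in TRb PTU (percentile 16.3).

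Near Igf1 the members closest to the start were the shared pair at 87294859, and the nearest outside site before it was shared, 11457 bp away in TRb T3 (percentile 88.1) and 11455 bp away in TRb PTU (percentile 77.7). The members closest to the end were the T3-only peak at 87436994 and the PTU-only peak at 87389893. Beyond the end the nearest TRb T3 peak was T3-only and 12901 bp away (score 46.41), and the nearest TRb PTU peak was another site, 159766 bp away (score 43.44).

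Before the window of Igfbp1 and Igfbp3 the nearest sites also differed, a T3-only peak 4563 bp away (percentile 86.1) and a shared TRb PTU peak 13986 bp away (percentile 81.1). The first members inside were the T3-only peak at 7051971, with its midpoint 2042 bp from the start, and the shared TRb PTU peak at 7052225, at 2510 bp. No peak of either list lay just past the end: the next were single-list peaks 340434 bp away in TRb T3 (percentile 34.0) and 330183.5 bp away in TRb PTU (percentile 35.9).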

How the data were processed

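Peak lists of 3 ChIP-seq libraries were used, 1 per group; the 3 input samples were not analysed here. Per the submitters' processing notes the authors used Bowtie, SAMtools and MACS2 and build mm9. Versions, settings and the control library are not given in the sources used, and they bear on the number and width of peaks. The deposited score is the peak caller's value, of a statistic the files do not name, so it only ranked or filtered peaks within a list. Depth is unknown.

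Peaks were assigned to windows by midpoint, and peaks of both TRb lists that shared at least 1 bp were called shared. Shares carry exact (Clopper-Pearson) 95% intervals. Chromosome densities ran up to the last peak. Positions are 1-based. The code for overlaps was tested on simulated data. The members, lists and windows were chosen with earlier results of these data known. Named were, per window, the 5 top shared (ordered by TRb T3 score), T3-only and PTU-only peaks, the widest peaks and those at the edges; other sites named were chosen after their values were seen. Counts of other axis genes and of receptor elements in peaks were planned and not run, since the tables used were of GRCm38.p6. Alternatives changed the overlap, score filter, list size and window. Python 3.11.15, numpy 2.4.6, pandas 2.3.3, scipy 1.17.1 and matplotlib 3.10.9 were used.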

Additional observations from a re-analysis of the deposited data

How the results depend on the processing

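No paired analysis was possible because each group had 1 library, and no library could be left out. The shares of T3-only and PTU-only peaks and the numbers of peaks per window were recomputed with midpoints within 200 bp, with 50% of the shorter peak covered, with only peaks scoring at least their list's median, with equal numbers of peaks, with 50 kb added on each side, with any overlap with the window, and without peaks at GFP sites. No member overlapped a GFP PTU peak, so leaving out peaks at GFP sites could not change any of these values. A filter on the queried list alone was added after seeing the data. Most shares stayed within their exact intervals, which are wide, so this shows little, and most counts stayed within 1.5 times. The exceptions follow, with shares that moved by over 1.5 times inside their interval and some smaller moves. The median filter on both lists left 9 TRb T3 and 6 TRb PTU peaks in the Igf1 window (15 and 15 before), since it removes peaks. Equal numbers of peaks and the filter on the queried list each made the PTU-only share of the window of Igfbp1 and Igfbp3 0.0% (12.5% before), by removing its 1 PTU-only peak. The filter on the queried list made the T3-only share 8.33% in the Ghr window (27.8% before) and 22.2% in the Igf1 window (46.7% before), and the PTU-only share 15.4% in the Ghr window (23.5% before). The filter on both lists made the T3-only share 16.7% in the Ghr window and 66.7% in the Igf1 window, and the PTU-only share of the window of Igfbp1 and Igfbp3 28.6%. Under that filter a peak whose overlapping partner scored below the median also counted as found in 1 list only. With 50 kb added, the Ghr window held 30 TRb T3 peaks (18 before). Its T3-only share was then 40.0% (27.8% before), against 38.7% list-wide. The 40.0% lies inside the interval of the unwidened window, 9.69 to 53.5%. Whether the share depends on the window edge was not tested. How deeply each library was sequenced is unknown, which limits any comparison of numbers of peaks.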

Other observations

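The 50 kb before the Ghr window held 11 TRb T3 peaks, 7 of them T3-only, with a highest score of 122.71, and 5 TRb PTU peaks, 1 of them PTU-only, with a highest score of 104.89. List-wide, 38.7% of TRb T3 peaks were T3-only and 46.1% of TRb PTU peaks were PTU-only. The 50 kb after the Igf1 window held 2 TRb T3 peaks, both T3-only, with a highest score of 46.41, and 0 TRb PTU peaks. The 50 kb after the window of Igfbp1 and Igfbp3 held 0 peaks in either TRb list. These stretches were looked at after the values of the windows had been seen, and with 1 library per group no test was made.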
